A study of Rattus norvegicus with 6 samples.

Results

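The ion channel genes described here are the transcripts of potassium (Kcn), sodium (Scn), calcium (Cacn), TRPC, TRPM, TRPV, HCN, chloride (Clcn), Piezo and anoctamin (Ano) families in cultured rat cardiac fibroblasts. They were chosen by gene name and by level: 179 of 30560 rows carried such a name, with Kcnj8 left out by the rule, and the 51 whose mean over the 6 libraries reached 0.5 FPKM were kept. FPKM are fragments scaled to gene length and library size, so levels of different genes can be set side by side. The cells were primary fibroblasts from ventricles of newborn SD rats aged 1 to 2 days, enriched by early attachment and starved of serum overnight. Of the 6 cultures, 3 received a negative control oligonucleotide (NC) and 3 the miR-142-3p antagomiR, an antisense oligonucleotide against the mature microRNA, labelled as its knockdown. Both were given at 50 nM with a lipid transfection reagent. The labels give no genotype beyond this, and do not say whether the 3 cultures of a group came from separate isolations, so p-values measure the spread between these libraries. The mature microRNA is shown because the antagomiR is directed against it, with its seed (bases 2 to 8) in capitals, from RefSeq on build GRCr8.
rno-miR-142-3p: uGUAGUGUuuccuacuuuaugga

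Ion channels are membrane proteins that let ions pass down their gradients, and most consist of a pore-forming subunit and auxiliary subunits that set its trafficking and gating. Potassium channels hold the resting membrane potential, calcium and TRP channels admit calcium as a signal, Piezo channels open when the membrane is stretched, and several CLC proteins are chloride and proton exchangers of endosomes and lysosomes. Cardiac fibroblasts do not fire action potentials, and in them calcium entry and membrane stretch are known to accompany the change to contractile myofibroblasts.

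Library totals ran from 19472409 to 24622667 fragments, so that 3 fragments on a gene of 1 kb were worth 0.122 to 0.154 FPKM, a limit set by counting error alone. The transcript of the microRNA's own locus, Mir142, had 3 to 6 fragments in NC and 5 to 8 with the antagomiR (log2 fold change 0.42, limma adjusted p = 0.255). A polyA library does not measure the mature microRNA, so this is no check of its silencing. Fibroblast markers were abundant, as labelled: 10 of them summed to 11919 to 12909 FPKM, against 8.76 to 12.4 FPKM for 8 endothelial and 302 to 436 FPKM for 9 cardiomyocyte markers. Summed over 15 leukocyte markers the level was 136, 200 and 706 FPKM in NC cultures (replicates 1 to 3) and 931 to 1039 FPKM in antagomiR cultures. NC replicate 3 therefore stood apart from the other NC libraries, and results that it touches are given with and without it. Of these 15 markers Cd3e was at 0 in every library and Cd79a had a mean under 0.1 FPKM.

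The 51 members passed the minimum with 113 to 34635 fragments over the 6 libraries. Of the other 128 rows with a matching name, 25 were at 0 in all libraries and 103 lay above 0 but below the minimum. Just inside the minimum were Scn3b at a mean of 0.522, Cacna1b at 0.527 and Kcng2 at 0.528 FPKM. Just outside were Kcne5 at 0.497, Kcna7 at 0.490 and Kcnk12 at 0.473 FPKM. The minimum was met in both group means by 45 members. Kcna3, Kcnk13, Trpm2 and Scn3b met it only in the antagomiR mean, and Cacnb2 and Cacna1b only in the NC mean, so these members passed in part through the group in which they were higher. Of the 51, 48 encode a channel or a channel subunit. The other 3 match by name alone: Trpc4ap encodes a TRPC4-associated adaptor protein of a ubiquitin ligase, Scnm1 a splicing factor and Kcnrg a soluble regulator of potassium channels. Kcnj8, the pore of a vascular ATP-sensitive potassium channel, was itself below the minimum, with 0.0213 to 0.188 FPKM in NC cultures and 0.280 to 0.337 FPKM in antagomiR cultures.

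The 6 most abundant channel genes made up 45.0% to 48.0% of the summed channel FPKM in each library. They were Cacnb3, a cytoplasmic beta subunit of voltage-gated calcium channels, at a mean of 33.2 FPKM, the potassium channel accessory gene Kcne4 at 32.0, the stretch-activated channel gene Piezo1 at 31.8, Ano10 at 21.8, the lysosomal exchanger gene Clcn7 at 19.1 and Ano6, which encodes a calcium-activated lipid scramblase and ion channel, at 16 FPKM. The sum over the 48 channel genes was 324, 310 and 347 FPKM in NC cultures and 330, 337 and 337 FPKM in antagomiR cultures, so the groups overlapped. The mean of 13 members reached 10 FPKM and that of 16 lay under 1 FPKM.

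**Figure D1:**
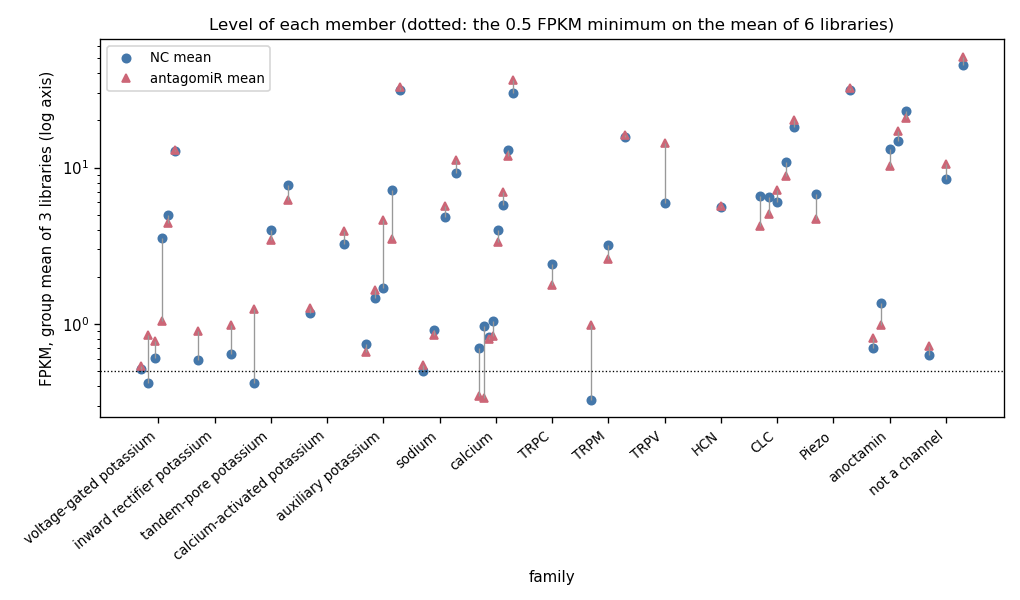
Mean FPKM of 3 libraries per group (log axis) for each of the 51 members by family, with NC as circles, the antagomiR as triangles and a line joining both. Cacnb3, Kcne4 and Piezo1 lie near 32 FPKM, and the longest joining lines belong to low members such as Trpm2, Kcnk13, Kcna6 and Cacnb2.

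Setting the antagomiR cultures against the NC cultures shows which channel transcripts differed when miR-142-3p was targeted. By limma on log2(FPKM + 1), with adjustment over all 13109 genes tested, 6 members rose and 10 fell at an adjusted p under 0.05. That is 11.8% and 19.6% of the members, beside 16.9% and 8.86% of all tested genes. The median log2 fold change was 0.03 over the members and 0.06 over all tested genes. The values of the groups did not overlap for 28 members, 12 of them higher and 16 lower with the antagomiR, where 43.6% of all tested genes showed no overlap. Without NC replicate 3, 14 members rose and 11 fell, beside 25.2% and 13.4% of all tested genes. The number risen was 3 without NC replicate 1, 1 without NC replicate 2, and 1, 1 and 2 without antagomiR replicates 1, 2 and 3. The number fallen was 9 and 7 without NC replicates 1 and 2, and 7, 6 and 6 without antagomiR replicates 1, 2 and 3. Calls over all genes shrank in the same fits, to between 1253 and 1890 risen and between 685 and 948 fallen. After median-ratio scaling 2 rose and 12 fell, whereas quantile normalization gave 3 risen and 16 fallen members and moved the median of all genes by -0.10. Over all genes 2212 rose and 1161 fell, against 1652 and 1538 with median ratios and 1495 and 1933 with quantiles, so the balance of rises and falls depends on the scaling. In every alternative that tested them, 7 of the 16 called members kept their call: Kcna6, Kcnmb1, Cacnb2, Clcn6, Piezo2 and Ano8, which fell, and Kcnab2, which rose.

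**Figure D2:**
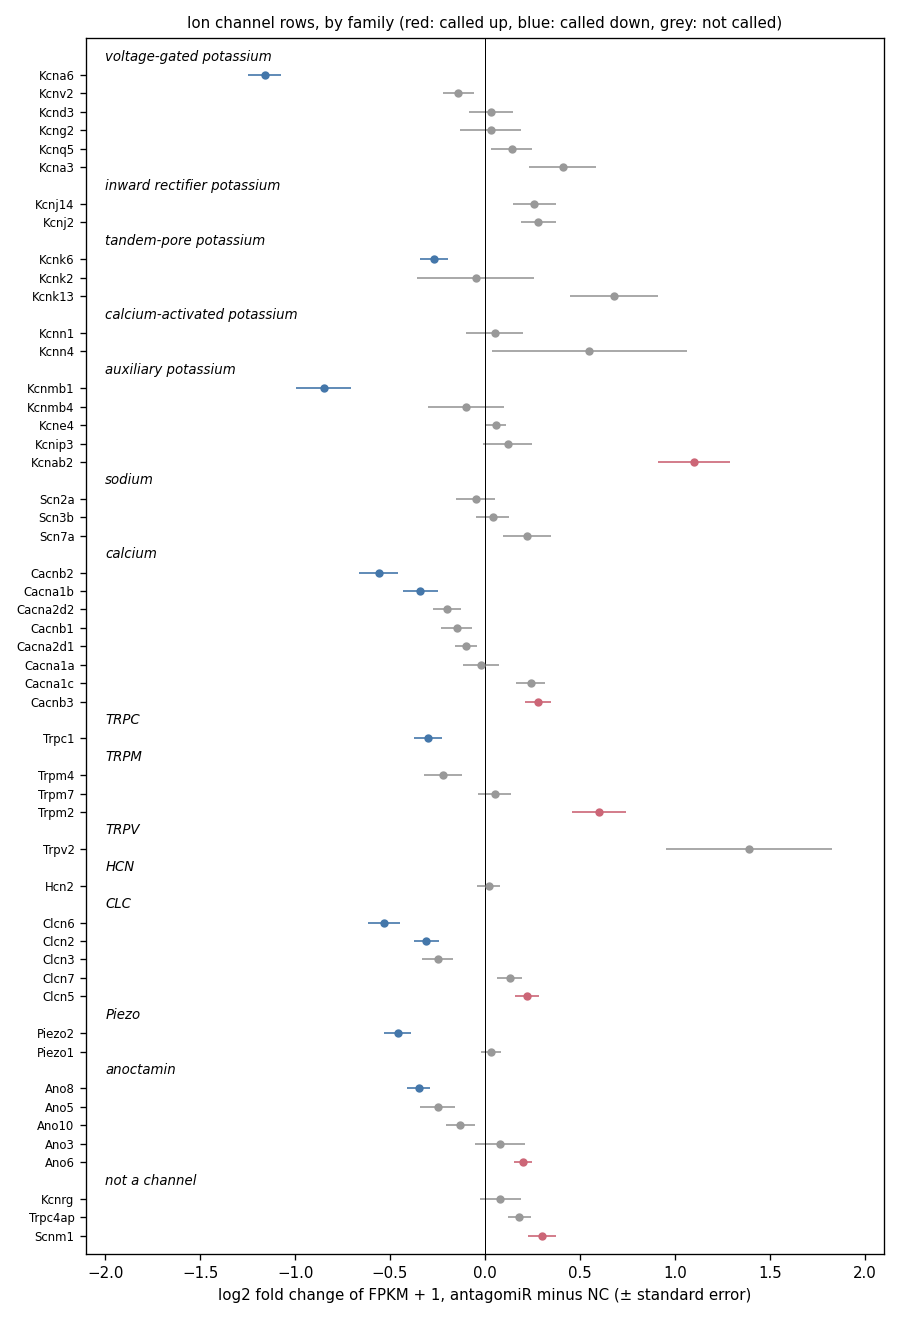
Log2 fold change of FPKM + 1, antagomiR minus NC, with its standard error for each member reported here, grouped by family; red members rose, blue members fell and grey members did not pass the test. Falls run from Kcna6 at -1.16 to Kcnk6 at -0.27 and rises from Ano6 at 0.20 to Kcnab2 at 1.10. The auxiliary potassium, calcium, CLC and anoctamin families hold both falls and rises, and Trpv2 and Kcnn4 carry the widest errors.

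Among pore-forming subunits of voltage-gated potassium channels, Kcna6 had the largest fall of all members. Its level was 3.65, 3.83 and 3.20 FPKM in NC cultures (replicates 1 to 3) and 1.00, 1.08 and 1.03 FPKM in antagomiR cultures, from 394 to 581 and 139 to 166 fragments. All antagomiR libraries lay below all NC libraries, at 0.291 times the NC mean. It fell by 1.16 on the log2 scale (standard error 0.0855, limma adjusted p = 0.000211). Kcna6 (ENSRNOG00000052486) encodes a delayed rectifier of the Shaker group and lies on chromosome 4 from 159542615 to 159576189 in mRatBN7.2. Kcnd3, a transient outward current gene, was the most abundant of the 6 in this class, and its 12.8 ± 1.74 FPKM in NC cultures and 13.0 ± 1.48 FPKM in antagomiR cultures (SD, n = 3) overlapped. Kcnv2, a silent modifier subunit, was at 4.96 ± 0.242 and 4.43 ± 0.436 FPKM and did not pass the test (adjusted p = 0.274). Kcnq5 and Kcng2 were under 1 FPKM in each library, with log2 fold changes of 0.14 and 0.03 and no call.

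Of 5 auxiliary potassium channel genes 1 rose, 1 fell and 3 did not pass the test. Such counts are too small to set against the 16.9% risen and 8.86% fallen among all tested genes. Kcnmb1, the smooth muscle beta subunit of the large-conductance calcium-activated channel, was at 6.82, 5.98 and 8.64 FPKM in NC cultures and at 2.92, 4.06 and 3.51 FPKM in antagomiR cultures. It fell by 0.85 on the log2 scale (standard error 0.144, limma adjusted p = 0.0057), and the groups did not overlap. The pore gene of that channel, Kcnma1, was listed at 0 to 0.0279 FPKM, from 0 to 3 fragments per library, and so was not tested. Of 8 tested smooth muscle and pericyte markers 6 fell and none rose, by limma, at an unadjusted p under 0.05 and by voom alike, and 7 fell and 1 rose without NC replicate 3. The summed level of 9 was 5567 to 6314 FPKM in NC cultures and 3482 to 3802 FPKM in antagomiR cultures. Acta2 (means of 2959 and 1795 FPKM) and Tagln (2673 and 1567 FPKM) gave most of this sum. With all libraries Pdgfrb and Des were not called, and Rgs5, at a mean of 0.172 FPKM, was not tested. The part of smooth muscle cells or pericytes in the fall of Kcnmb1 was not tested, and in bulk RNA fewer cells of a type and less RNA per cell cannot be told apart.

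Kcnab2, a cytoplasmic beta subunit of Shaker-type channels, had the largest rise of the called members on the log2(FPKM + 1) scale, while the ratio of mean FPKM was higher for Trpm2 (3.02) than for Kcnab2 (2.72). It was at 1.44, 1.08 and 2.58 FPKM in NC cultures (replicates 1 to 3) and 4.81, 4.39 and 4.65 FPKM in antagomiR cultures. It rose by 1.10 (standard error 0.19, limma adjusted p = 0.0063), and by 1.32 without NC replicate 3, the highest of the NC libraries. Kcne4, an inhibitory accessory subunit, was 31.4 ± 0.535 FPKM in NC cultures and 32.7 ± 1.54 FPKM in antagomiR cultures (adjusted p = 0.484). Kcnip3, a calcium sensor of A-type channels, and Kcnmb4, a neuronal beta subunit, also had overlapping groups, with log2 fold changes of 0.12 and -0.10.

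Tandem-pore channels carry background potassium currents. Kcnk6 was at 7.15, 7.58 and 8.33 FPKM in NC cultures and 6.33, 5.99 and 6.27 FPKM in antagomiR cultures, without overlap, and fell by 0.27 on the log2 scale (limma adjusted p = 0.0338). The call ended without NC replicate 2 or any single antagomiR library, at adjusted p values from 0.0891 to 0.119. The inward rectifiers Kcnj2, which stabilises the resting potential, and Kcnj14 were each higher in all antagomiR libraries than in all NC libraries. Kcnj2 was 0.640 ± 0.108 FPKM in NC cultures and 0.988 ± 0.0592 FPKM in antagomiR cultures, and Kcnj14 was 0.590 ± 0.185 and 0.898 ± 0.0964 FPKM. Neither passed the test, with adjusted p values of 0.0664 and 0.143, and Kcnj2 did so without NC replicate 3 (0.0383). Kcnn1, a small-conductance calcium-activated channel, was 1.17 ± 0.153 and 1.27 ± 0.454 FPKM, with overlapping groups.

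Of 8 voltage-gated calcium channel genes 1 rose, 2 fell and 5 did not pass the test, beside 16.9% risen and 8.86% fallen among all tested genes. The beta subunit gene Cacnb3 was at 28, 28.6 and 33.0 FPKM in NC cultures and at 36.7, 36.1 and 36.7 FPKM in antagomiR cultures. It rose by 0.28 on the log2 scale (limma adjusted p = 0.0234), and NC replicate 3 was the closest of the NC libraries to the antagomiR group. Cacnb2, the beta subunit known best from heart muscle, was at 1.19, 0.848 and 0.869 FPKM in NC cultures and at 0.334, 0.383 and 0.287 FPKM in antagomiR cultures, from 60 to 81 and 23 to 33 fragments. It fell by 0.56 (adjusted p = 0.00852), with the antagomiR mean at 0.346 times the NC mean. The cardiomyocyte markers did not fall as a list: of 7 tested 2 rose and 1 fell, and their median was 0.16 on the log2 scale. Their sum, which 1 gene dominates, was 394 to 436 FPKM in NC libraries and 302 to 362 FPKM in antagomiR libraries, and the part of these cells in the fall of Cacnb2 was not tested. Every antagomiR library thus held more Cacnb3 and less Cacnb2 transcript than every NC library.

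Cacna1b, the pore of N-type channels of neurons, was at 0.695, 0.639 and 0.782 FPKM in NC cultures and at 0.396, 0.348 and 0.299 FPKM in antagomiR cultures. It fell by 0.34 (limma adjusted p = 0.0326). Among neuron and Schwann cell markers Ncam1 fell by 0.55 (adjusted p = 0.00762), and the neuronal marker Elavl3 was at 0 in 4 of the 6 libraries. Over 10 such markers, of which Ncam1 gives most, the summed level was 148 to 180 FPKM in NC libraries and 118 to 126 FPKM in antagomiR libraries, and their part in this fall was not tested. Cacna1c, the L-type pore and the most abundant pore gene of the family, was at 6.0, 6.02 and 5.21 FPKM in NC cultures and at 6.75, 7.33 and 6.84 FPKM in antagomiR cultures. The groups did not overlap, but the log2 fold change of 0.24 did not pass the test (adjusted p = 0.0564). The alpha2delta subunit genes Cacna2d1 and Cacna2d2, which raise the surface density of the pores, and Cacnb1 were lower in all antagomiR libraries, at 0.925, 0.834 and 0.805 times the NC mean, without a call. Cacna1a, the P/Q-type pore, overlapped between groups at 0.830 ± 0.12 and 0.806 ± 0.0744 FPKM. Calls of Cacnb3 and Cacna1b ended without NC replicate 1 or 2 or any single antagomiR library, with adjusted p up to 0.0883 and 0.120, and that of Cacnb3 after median-ratio scaling (0.0601).

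No sodium channel gene passed the limma test among 4 members, none had an unadjusted p under 0.05, and voom on recovered fragments called none. Scn7a, an atypical channel gated by extracellular sodium, was at 5.28, 5.41 and 3.71 FPKM in NC cultures and between 5.57 and 5.74 FPKM in antagomiR cultures, so that NC replicate 3 was the lowest library. The log2 fold change of Scn7a was 0.22 (limma adjusted p = 0.253), and 0.07 without NC replicate 3. Scn2a and Scn3b stayed under 1.2 FPKM with overlapping groups. Hcn2, a pacemaker-type channel gene and the only HCN member, was 5.56 ± 0.0909 FPKM in NC cultures and 5.65 ± 0.12 FPKM in antagomiR cultures (log2 fold change 0.02, adjusted p = 0.847).

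The stretch-activated Piezo channels differed from each other. Piezo2 was at 7.35, 6.82 and 6.29 FPKM in NC cultures and at 4.75, 4.71 and 4.62 FPKM in antagomiR cultures, and fell by 0.46 on the log2 scale (standard error 0.0729, limma adjusted p = 0.00454). Piezo1 was at 30.9, 30.6 and 32.9 FPKM in NC cultures and at 31.2, 33.4 and 32.0 FPKM in antagomiR cultures, with a log2 fold change of 0.03 (adjusted p = 0.717). The difference between both effects was not tested. The summed Piezo level overlapped between groups, at 38.3 ± 0.916 and 36.9 ± 1.11 FPKM, since Piezo1 makes up most of it. Piezo2 (ENSRNOG00000038784) lies on chromosome 18 from 56469680 to 56844216.

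Among TRP channels, Trpc1, a cation channel subunit linked to receptor- and store-operated calcium entry, was at 2.38, 2.43 and 2.46 FPKM in NC cultures and at 1.85, 1.80 and 1.67 FPKM in antagomiR cultures. It fell by 0.30 (limma adjusted p = 0.0241), a call that ended without NC replicate 2 or any single antagomiR library (0.0664 to 0.102). Trpm7, a channel fused to a kinase and the most abundant TRP gene, overlapped at 15.6 ± 1.9 and 16.1 ± 0.714 FPKM. Trpm4, a calcium-activated monovalent cation channel, was lower in all antagomiR libraries, at 3.19 ± 0.482 and 2.59 ± 0.146 FPKM, without a call (adjusted p = 0.162).

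Of 5 CLC chloride-transport genes 1 rose, 2 fell and 2 did not pass the test, counts too small to set against the 16.9% and 8.86% of all tested genes. Clcn6, a late endosomal exchanger gene, was at 7.35, 6.41 and 6.01 FPKM in NC cultures and at 4.37, 4.09 and 4.24 FPKM in antagomiR cultures, and fell by 0.53 (limma adjusted p = 0.00425). Clcn2, a plasma membrane chloride channel, was at 6.57, 6.25 and 6.76 FPKM and at 5.30, 4.88 and 5.06 FPKM, and fell by 0.31 (adjusted p = 0.0149). Clcn5, an endosomal exchanger, was at 6.37, 5.88 and 5.79 FPKM and at 7.09, 7.35 and 7.08 FPKM, and rose by 0.22 (adjusted p = 0.0442). None of these 3 had overlapping groups. The call of Clcn5 ended without NC replicate 2 or any single antagomiR library and under both scalings (adjusted p from 0.113 to 0.372), and that of Clcn2 without antagomiR replicate 2 or 3 (up to 0.0676). Clcn3 was lower in all antagomiR libraries, at 10.8 ± 1.0 and 8.86 ± 0.53 FPKM (adjusted p = 0.065), and was called without NC replicate 3 (0.00996). Clcn7, the most abundant, was 18.2 ± 0.961 and 20.0 ± 1.24 FPKM, with overlap and no call.

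The anoctamin family includes calcium-activated chloride channels and lipid scramblases, and not every member is a chloride channel. Ano8 was at 13.6, 12.4 and 13.7 FPKM in NC cultures and at 10.5, 9.85 and 10.2 FPKM in antagomiR cultures, and fell by 0.35 (limma adjusted p = 0.00708). Ano6 was at 14.8, 14.5 and 15 FPKM and at 17.3, 17.1 and 17.1 FPKM, and rose by 0.20 (adjusted p = 0.0227). Both pairs of groups lay apart, and the rise of Ano6 ended without NC replicate 2 or any single antagomiR library (up to 0.0909) and after median-ratio scaling or quantile normalization (0.0806 and 0.115). Ano5, known from muscle, was lower in all antagomiR libraries at 1.36 ± 0.0988 and 0.982 ± 0.143 FPKM (adjusted p = 0.0897). Ano10 at 22.9 ± 1.84 and 20.7 ± 1.32 FPKM and Ano3 at 0.707 ± 0.176 and 0.813 ± 0.234 FPKM overlapped. Of the 3 rows that do not encode channels, Scnm1 rose from 8.45 ± 0.347 to 10.6 ± 0.874 FPKM (adjusted p = 0.0257), a call that ended without NC replicate 1 or 2 or antagomiR replicate 1 or 2 (up to 0.0884) and under both scalings (0.064 and 0.145). Trpc4ap, at 45.2 ± 3.14 and 51.2 ± 0.906 FPKM, and Kcnrg, at 0.631 ± 0.135 and 0.722 ± 0.132 FPKM, did not pass the test.

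**Figure D3:**
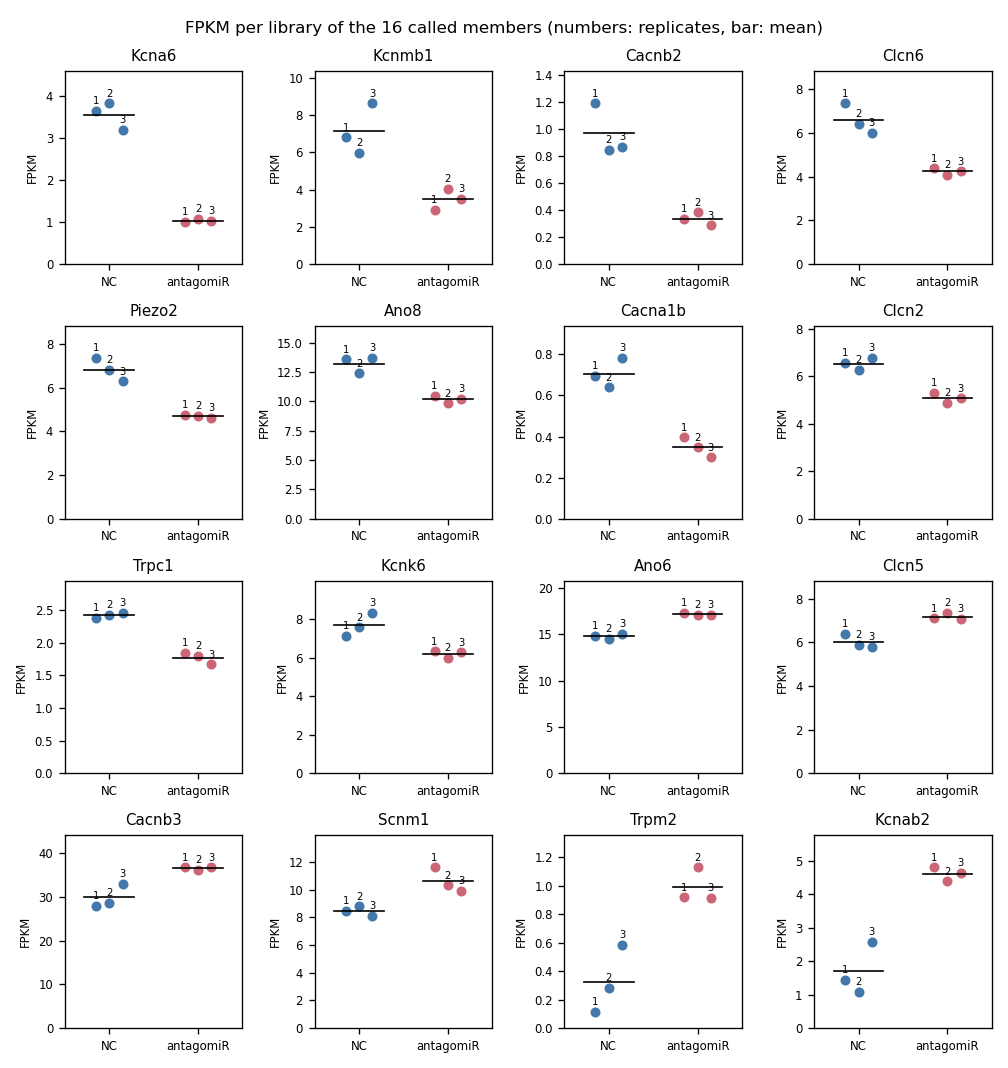
FPKM in each library (points, numbered by replicate) and group mean (bar) of the 16 called members, ordered from the largest fall to the largest rise, on linear axes from 0. In each panel all antagomiR libraries lie on one side of all NC libraries, and NC replicate 3 is the NC library closest to the antagomiR mean for Kcna6, Clcn6, Piezo2, Ano6, Cacnb3, Trpm2 and Kcnab2.

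In NC replicate 3, 6 members stood out. By a rule set after the values were seen, Kcna3, Kcnk2, Kcnk13, Kcnn4, Trpm2 and Trpv2 were at least 2 times as high there as in both other NC libraries, which held for 3.57% of all tested genes and for 13 of 13 tested leukocyte markers. Trpv2, a cation channel with high expression in macrophages, was at 2.72, 3.14 and 12.0 FPKM in NC cultures (replicates 1 to 3) and at 14.3, 14.5 and 14.0 FPKM in antagomiR cultures. All antagomiR libraries were above all NC libraries, but the log2 fold change of 1.39 had a standard error of 0.439 and did not pass the test (limma adjusted p = 0.0582). Leaving out NC replicate 3 gave 1.96 (adjusted p = 3.00e-06), and voom on recovered fragments, with all libraries, called Trpv2 as well (adjusted p = 0.0167).

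Kcnn4, the intermediate-conductance calcium-activated potassium channel of lymphocytes, macrophages and proliferating fibroblasts, had its highest level in an NC library. It was at 1.16, 1.07 and 7.57 FPKM in NC cultures (replicates 1 to 3) and at 4.02, 3.55 and 4.25 FPKM in antagomiR cultures, from 40, 46 and 264 and from 155 to 172 fragments. The log2 fold change was 0.55 (limma adjusted p = 0.485) with all libraries and 1.22 (adjusted p = 8.87e-05) without NC replicate 3. Kcnk2, a mechanosensitive background channel, had the same order, at 2.86, 2.20 and 6.87 FPKM in NC cultures and 3.61, 3.50 and 3.25 FPKM in antagomiR cultures. Its log2 fold change turned from -0.05 (adjusted p = 0.932) to 0.34 (adjusted p = 0.0364) without NC replicate 3. For these potassium channels the direction or size of the difference thus rests on 1 library.

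Kcna3, the voltage-gated potassium channel of lymphocytes and macrophages, was at 0.176, 0.240 and 0.848 FPKM in NC cultures and at 0.899, 0.872 and 0.776 FPKM in antagomiR cultures. Kcnk13, a tandem-pore channel known from microglia, was at 0.203, 0.131 and 0.924 FPKM and at 0.890, 1.12 and 1.70 FPKM. Both overlapped between groups and were not called (log2 fold changes 0.41 and 0.68, limma adjusted p = 0.138 and 0.0699), and both were called without NC replicate 3, at 0.61 and 0.92 (adjusted p = 0.00305 and 0.00417). With all libraries, voom on recovered fragments called Kcna3 and Kcnk13 up (adjusted p = 0.0379 and 0.036). Trpm2, an oxidant-sensitive calcium channel of myeloid cells, was the only one of the 6 that the main limma test called with all libraries. It was at 0.114, 0.283 and 0.584 FPKM in NC, from 12 to 62 fragments, and at 0.919, 1.13 and 0.918 FPKM in antagomiR cultures, and rose by 0.60 (adjusted p = 0.0227). The call of Trpm2 ended without any single library other than NC replicate 3 (adjusted p from 0.0504 to 0.0852) and with a pseudocount of 0.01 (0.057).

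Leukocyte markers moved with these channels. Of 13 tested markers 6 rose and none fell (at an unadjusted p under 0.05, and by voom, 9 rose and none fell), and all 13 rose without NC replicate 3. They did not move alike: Adgre1 was 5.36 ± 5.33 FPKM in NC cultures and 59.2 ± 4.18 FPKM in antagomiR cultures, whereas Mrc1 was 4.21 ± 3.26 and 3.97 ± 0.12 FPKM. Like Kcnn4 and Kcnk2, Cd68, Mrc1, C1qa and C1qb had their highest level in NC replicate 3, while Trpv2, Trpm2 and Adgre1 were higher in all antagomiR libraries. The part of leukocyte RNA in the channel values was not tested.

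**Figure D4:**
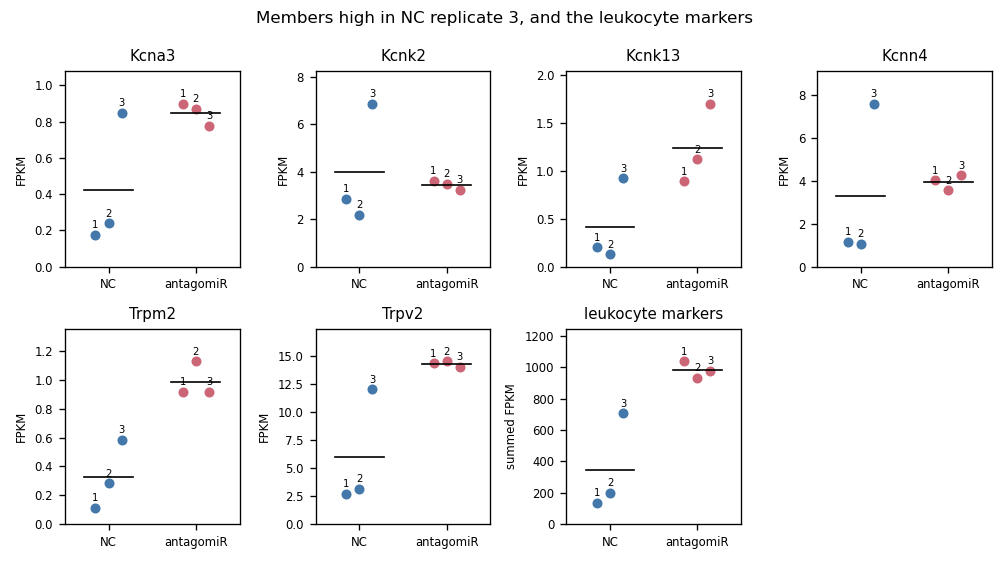
FPKM in each library (points, numbered by replicate) and group mean (bar) of the 6 members that were at least 2 times as high in NC replicate 3 as in both other NC libraries, with the summed FPKM of 15 leukocyte markers in the last panel; all axes start at 0. Kcnn4 and Kcnk2 are highest in NC replicate 3 at 7.57 and 6.87 FPKM, whereas Trpv2, Trpm2 and the marker sum are highest with the antagomiR.

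Channel, pump and calcium signalling genes outside these families were read from separate lists. Counts in these lists stand beside 16.9% risen and 8.86% fallen among all tested genes. Among store-operated entry genes 1 of 5 rose and none fell: Orai2, a pore subunit, went from 6.53 ± 0.0955 to 9.20 ± 0.272 FPKM (limma adjusted p = 0.00212), while Orai1 at 17.9 ± 3.97 and 22.3 ± 0.834 FPKM and the sensor Stim1 at 11.1 ± 0.686 and 12.3 ± 0.892 FPKM were not called. Orai1 was highest among NC cultures in replicate 3, at 22.5 FPKM against 15.3 and 15.9, and was called up without it (0.49, adjusted p = 4.85e-04). Among volume-regulated anion channel genes 2 of 5 rose, the essential subunit Lrrc8a from 12.3 ± 0.502 to 15.2 ± 0.269 FPKM and Lrrc8b from 3.82 ± 0.378 to 5.25 ± 0.758 FPKM. No release channel of the endoplasmic reticulum passed the limma test among 3 tested, although 2 had an unadjusted p under 0.05 and voom called Itpr2 up and Itpr3 down. Of 4 tested P2X channels none was called by limma or voom with all libraries, and none had an unadjusted p under 0.05. P2rx4, at 15.8, 16.8 and 22.0 FPKM in NC cultures and 19.2 to 20.8 FPKM in antagomiR cultures, was called up without NC replicate 3 (0.28, adjusted p = 0.0081). The gap junction gene Gja1 rose from 5.95 ± 0.943 to 8.11 ± 0.648 FPKM, 1 of 7 connexin and pannexin genes tested. These calls ended for Lrrc8a without antagomiR replicate 2 or 3 (adjusted p up to 0.0555), for Gja1 without NC replicate 2 or any single antagomiR library (up to 0.127), and for Lrrc8b without any single library other than NC replicate 3 (up to 0.140).

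Of 7 other cation channel genes 1 rose and 2 fell. The polycystin genes Pkd2, from 53.6 ± 2.37 to 42.0 ± 1.8 FPKM, and Pkd1, from 31.7 ± 2.05 to 24.2 ± 1.03 FPKM, fell (limma adjusted p = 0.00486 and 0.00581). Hvcn1, the voltage-gated proton channel of phagocytes, was at 1.56, 1.89 and 6.39 FPKM in NC cultures and 12.5 to 12.8 FPKM in antagomiR cultures, and rose by 1.84 (adjusted p = 0.0113). It was high in NC replicate 3, as was Trpv2. Mcoln2, an endolysosomal channel with 2 to 10 fragments in NC libraries, rose from 0.216 ± 0.167 to 0.947 ± 0.0497 FPKM (1 of 5 tested). Mcoln2 met the 0.5 FPKM minimum only in the antagomiR mean, so it was tested in part through the group in which it was higher. Ttyh3, of the tweety chloride channels, rose from 11.7 ± 1.96 to 15.9 ± 0.637 FPKM (1 of 4 tested). The call of Ttyh3 ended without any single library other than NC replicate 3 (up to 0.102).

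Among 11 pumps and exchangers 3 rose and 2 fell. Atp2b4, a plasma membrane calcium pump, fell from 10.9 ± 1.01 to 5.26 ± 0.272 FPKM (log2 fold change -0.93, limma adjusted p = 0.000377) and Atp1b1, a sodium pump beta subunit, from 33.9 ± 1.67 to 22.1 ± 1.45 FPKM (adjusted p = 0.00098). The more abundant beta subunit gene Atp1b3 rose from 79.0 ± 9.15 to 103 ± 3.47 FPKM (limma adjusted p = 0.0154). The call of Atp1b3 ended without antagomiR replicate 1 or 3 (up to 0.0674). Slc8b1, a mitochondrial sodium-calcium exchanger, rose from 10.9 ± 1.62 to 17.9 ± 0.199 FPKM. Among calcineurin and NFAT genes the calcineurin regulator Rcan2 rose from 4.53 ± 0.683 to 10.1 ± 1.2 FPKM (adjusted p = 0.00115). The median log2 fold changes of the 10 lists lay between -0.08 and 0.15, around that of all tested genes.

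Promoter windows were read for the members from RefSeq on GRCr8, from 250 bases before to 50 after an annotated start, and 41 of the 51 symbols matched, with 54 windows. The median GC content was 62.8% in the member windows and 51.7% in all 33469 windows. The GC box (GGGCGG, both strands) was found in 57.4% of member windows and 33.1% of all, and the core of the PU.1 site of myeloid genes (GAGGAAG, both strands) in 25.9% and 12.4%. Windows with a PU.1 core belonged to 10 of the 41 genes: Ano10, Ano6, Clcn6, Kcna6, Kcnd3, Kcnip3, Kcnj14, Kcnj2, Kcnk2 and Scn2a. Several windows can belong to 1 gene, Ano10 among them, so windows are not independent. An NF-kB motif was found in 14.8% of member windows and 7.51% of all, an AP-1 motif (TGANTCA) in 1.85% and 7.33%, a TEAD motif (GGAATG) in 9.26% and 14.2%, and the CArG box of SRF in none and 1.64%. These matches are descriptions of letters, and a window without a match says nothing about binding.

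The windows shown belong to the members with the largest called changes on the log2(FPKM + 1) scale, Kcna6 and Kcnmb1, which fell, and Kcnab2 and Trpm2, which rose. By the ratio of mean FPKM, Cacnb2 (0.346) fell further than Kcnmb1 (0.489). Each is written 5′ to 3′ in the direction of the gene on build GRCr8, with PU.1 cores and GC boxes in capitals. They lie at chr4:161262303-161262602 (minus strand), chr10:19061849-19062148 (plus), chr5:168270711-168271010 (minus) and chr20:10704222-10704521 (plus). The Kcna6 window held 2 PU.1 cores and the Trpm2 window 1 GC box, whereas the Kcnmb1 and Kcnab2 windows held neither.
Kcna6: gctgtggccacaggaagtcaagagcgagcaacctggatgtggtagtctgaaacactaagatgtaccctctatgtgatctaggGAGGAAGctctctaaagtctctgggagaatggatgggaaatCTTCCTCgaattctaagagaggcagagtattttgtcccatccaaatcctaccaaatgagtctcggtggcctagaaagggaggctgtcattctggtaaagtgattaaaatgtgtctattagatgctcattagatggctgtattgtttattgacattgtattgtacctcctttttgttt
Kcnmb1: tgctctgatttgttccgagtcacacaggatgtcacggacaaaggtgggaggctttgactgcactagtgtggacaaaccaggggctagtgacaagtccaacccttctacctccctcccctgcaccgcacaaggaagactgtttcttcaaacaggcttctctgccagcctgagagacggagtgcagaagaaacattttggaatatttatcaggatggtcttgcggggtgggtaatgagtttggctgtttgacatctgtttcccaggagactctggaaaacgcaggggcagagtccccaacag
Kcnab2: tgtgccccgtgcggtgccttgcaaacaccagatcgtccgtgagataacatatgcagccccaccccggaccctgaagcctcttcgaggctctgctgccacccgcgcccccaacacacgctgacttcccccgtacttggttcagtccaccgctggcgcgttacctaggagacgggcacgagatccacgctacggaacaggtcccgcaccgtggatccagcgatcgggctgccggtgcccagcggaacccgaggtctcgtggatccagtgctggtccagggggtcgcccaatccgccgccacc
Trpm2: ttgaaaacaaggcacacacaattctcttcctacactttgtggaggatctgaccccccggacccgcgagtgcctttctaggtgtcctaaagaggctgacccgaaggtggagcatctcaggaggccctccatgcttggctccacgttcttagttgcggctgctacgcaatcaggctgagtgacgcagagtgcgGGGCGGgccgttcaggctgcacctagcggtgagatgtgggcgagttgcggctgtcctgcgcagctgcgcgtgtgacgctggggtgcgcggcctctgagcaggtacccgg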

How the data were processed

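RNA was selected by polyA, and both ends of each fragment were read over 150 bp, per the labels' protocols. Tools named in the submitters' processing notes are HISAT2, HTSeq, edgeR, cutadapt and FastQC, with the build mRatBN7.2. The strand setting is not given in the sources used here, so overlapping genes cannot be told apart. The authors deposited FPKM for each gene and library. Fragment counts were recovered from them: all 20134 genes above 0 gave whole numbers within a tolerance of 0.01, which came to 99.7% or more of each library total.

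The test was limma 3.58.1 in R 4.3.3 (eBayes with a trend) on log2(FPKM + 1), two-sided, for the 13109 genes whose mean reached 0.5 FPKM, called at a Benjamini-Hochberg adjusted p under 0.05. This scale understates changes of low genes, and fold changes are antagomiR minus NC. The fit was tested on simulated data.

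Members, lists and the rule for named genes were chosen with earlier results of these data known. The rule took called members, the most abundant of each family, those nearest the minimum, rows that are no channels, Mir142 and up to 3 genes per list with the smallest p, and the text names other genes chosen on their values. As alternatives, the pseudocount was 0.1 or 0.01, the filter was absent or at 1 or 5 FPKM, values were scaled by median ratios or quantiles, the replicate number was a block, the variance was fitted robustly or with no trend, voom was run on recovered fragments, and each library was left out in turn. Some genes are not reported here.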

Additional observations from a re-analysis of the deposited data

How the results depend on the processing

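Over all tested genes 3373 were called, and 1938 to 5060 without 1 library, the highest count without NC replicate 3. The replicate block gave 1596 genes risen and 823 fallen, and voom on recovered fragments 2475 and 1228. Members risen, 6, were 2 after median-ratio scaling, 3 after quantile normalization, 3 with the replicate block, 11 by voom on recovered fragments and 1 to 14 without 1 library. Members fallen, 10, were 16 after quantile normalization, 6 with a minimum of 5 FPKM, where fewer members were tested, 6 with the replicate block and 6 to 11 without 1 library. The cause of the other differences was not tested. It is not known if an NC and an antagomiR library with the same replicate number were prepared together. The correlation of deviations was -0.15, -0.04 and -0.05 between libraries of equal number and -0.06 to 0.11 between the others. Deviations within a group of 3 are tied to each other through the group mean, so these correlations cannot decide between paired and unpaired cultures. With the replicate block 2419 genes were called, and 8 of the 16 called members kept their call, while Kcnk13 gained one (adjusted p = 0.021). Over pairs of a member and an alternative, 742 gave the same call, 55 a weaker and 26 a stronger one. Direction was compared only where either fit called the member, so uncalled members could change sign within the 742. Kcnk2, at -0.05, went from -0.31 without NC replicate 2 to 0.34 without NC replicate 3. Depth limits the low members most, such as Kcnk13 with 4 fragments in NC replicate 2.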
